A study of Mus musculus with 16 samples.

Results

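The genes described here are the chemokine ligands and receptors on a mouse liver expression array. They were chosen by symbol: every gene name beginning with Ccl, Cxcl, Ccr or Cxcr and a number, which gave 47 genes of the 27962 gene names on the array. Of these, 33 were ligand genes (20 Ccl and 13 Cxcl) and 14 were receptor genes (11 Ccr and 3 Cxcr). Each gene was represented by 1 probe, the one with the highest mean signal over all arrays, among 60 probes for the 47 genes.

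RNA from whole livers of male C57BL/6 mice at 3 months of age was hybridised in 4 groups of 4 arrays. The groups were liver knockouts of the glucocorticoid receptor (GR, encoded by Nr3c1) given dexamethasone, the same knockouts left untreated, wild-type mice given dexamethasone, and untreated wild-type mice. Dexamethasone is a synthetic glucocorticoid that binds GR. The sample sources call the mice without dexamethasone untreated, the treatment protocol speaks of vehicle, and the titles of both knockout groups carry the abbreviation PBS. The dose, the route and the time of dosing, the promoter or cell type that drives the deletion and the deleted part of Nr3c1 are all left unstated by the labels. No label says that the arrays of a group came from separate mice, so the p-values measure the spread between these arrays, which may be technical.

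Chemokines are small secreted proteins that steer the movement of leukocytes along gradients, and their receptors are membrane proteins coupled to G proteins, carried mainly by the migrating cells. Many ligand genes are switched on by NF-kB or by interferons, and glucocorticoids are known to lower many such inflammatory genes. In liver, chemokines are made by hepatocytes, Kupffer cells, sinusoidal endothelium and stellate cells, and the receptors are found mainly on resident and passing lymphocytes and myeloid cells. Because whole tissue was measured, fewer cells of a type and less RNA per cell cannot be told apart in any value below.

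The upstream sequence is shown for 4 ligand genes: the called genes Cxcl10, Cxcl12 and Ccl6, and Cxcl9, the neighbour and fellow Cxcr3 ligand of Cxcl10. Cxcl9 was called in no comparison. The called genes Ccl27, Ccr1l1 and Ccr3 also have windows, which are not shown. Each line gives the 250 bases before the RefSeq start on the gene's own strand, from RefSeq on GRCm38.p6, with matches to the NF-kB consensus and to the core of the interferon-stimulated response element (ISRE, GAAANNGAA) in capitals, searched on both strands. The windows are chr5:92348890-92349139 on the minus strand for Cxcl10, chr5:92328080-92328329 on the minus strand for Cxcl9, chr6:117168285-117168534 on the plus strand for Cxcl12 and chr11:83593088-83593337 on the minus strand for Ccl6.
Cxcl10: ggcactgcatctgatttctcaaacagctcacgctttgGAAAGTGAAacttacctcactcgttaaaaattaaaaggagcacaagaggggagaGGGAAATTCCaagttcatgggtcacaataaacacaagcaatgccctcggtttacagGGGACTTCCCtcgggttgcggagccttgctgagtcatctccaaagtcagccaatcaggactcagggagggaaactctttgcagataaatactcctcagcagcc
Cxcl9: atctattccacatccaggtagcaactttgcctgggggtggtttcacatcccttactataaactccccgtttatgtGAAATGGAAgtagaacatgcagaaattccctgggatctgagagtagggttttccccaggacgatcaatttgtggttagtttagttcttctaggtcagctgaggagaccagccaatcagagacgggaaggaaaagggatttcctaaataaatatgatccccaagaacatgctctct
Cxcl12: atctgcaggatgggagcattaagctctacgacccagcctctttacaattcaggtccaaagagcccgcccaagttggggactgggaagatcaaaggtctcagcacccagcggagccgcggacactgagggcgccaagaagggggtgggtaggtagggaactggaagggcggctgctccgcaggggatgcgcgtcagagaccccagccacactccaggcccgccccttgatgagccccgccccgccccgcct
Ccl6: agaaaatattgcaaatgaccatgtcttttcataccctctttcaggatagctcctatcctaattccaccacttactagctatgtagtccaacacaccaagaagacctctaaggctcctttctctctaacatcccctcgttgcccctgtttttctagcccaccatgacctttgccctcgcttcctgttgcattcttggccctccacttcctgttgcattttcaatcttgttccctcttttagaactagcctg

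The Cxcl10 window held an ISRE core match that began 213 bases before the start and 2 NF-kB matches that began 159 and 103 bases before it. The Cxcl9 window held an ISRE core match that began 175 bases before the start, and the Cxcl12 and Ccl6 windows held no match to either motif. Of the 47 chemokine genes, 34 had a window in the RefSeq promoter table, 38 windows in all, since Ccl25, Ccl27 and Ccr6 have more than 1. Of the 38 windows, 7 held an ISRE core match, against 7.13% of 32851 promoter windows of this length, and 7 held an NF-kB match, against 3.90%. Another motif, the palindromic glucocorticoid response element (GNACANNNTGTNC), was found in 0 of the 38 windows and in 0.387% of all windows. The NF-kB windows were those of Ccl9, Ccl20, Ccr3, Ccr6, Cxcl1, Cxcl2 and Cxcl10. The ISRE windows were those of Ccl1, Ccl3, Ccl19, Ccr2, Cxcl9, Cxcl10 and Cxcl14. Of the 6 called genes with a window, 1 held an ISRE core match and 2 held an NF-kB match. These letters do not show that a factor binds there.

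Levels are given as log2 signal relative to the 75th percentile of the same array, so 0 is the signal of a fairly bright probe and each unit is a factor of 2; probes differ in brightness, so levels are compared between arrays and not between genes. A gene was tested when its probe was well above background, by the scanner's own flag, on 3 or 4 arrays of 1 or more groups. That left 34 of the 47 chemokine genes (24 ligands and 10 receptors), and 27 of them were above background on all 16 arrays. Of the 13 others, Ccl11, Ccl20, Ccl22, Cxcl2, Cxcl5, Ccr1, Ccr8 and Ccr10 were not well above background on any array, and Ccl1, Ccl3, Ccl12, Cxcl15 and Ccr4 were above it on too few. A gene was called when the adjusted p of limma's test was under 0.05, with Benjamini-Hochberg adjustment over all 18598 genes tested. Of the 34, 11 were called in at least 1 of the 5 comparisons. The share of all genes called in at least 1 comparison is not given, so this count shows no excess over all genes.

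The deletion was visible in Nr3c1 itself. Its level was -0.11, 0.44, 0.00 and 0.34 in dexamethasone-treated knockouts, 0.24, 0.45, 0.57 and 0.41 in untreated knockouts, 1.92, 2.18, 2.17 and 2.26 in dexamethasone-treated wild types, and 2.48, 2.47, 2.52 and 2.13 in untreated wild types. All 8 knockout arrays lay below all 8 wild-type arrays. The Nr3c1 probe was still well above background on 4 of 4 arrays of each knockout group. How much working receptor, if any, this signal stands for was not tested. A pair of arrays was dimmer than the rest: the 75th percentile of the signal was 309 on untreated knockout array 1 and 400 on untreated wild-type array 4, against 524 to 691 on the other 14. Untreated knockout array 1 also correlated less with its group (mean r of 0.963) than any other array did (0.975 to 0.989). Each group was hybridised on a slide of its own, so an effect of the slide and an effect of the group cannot be told apart.

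**Figure D1:**
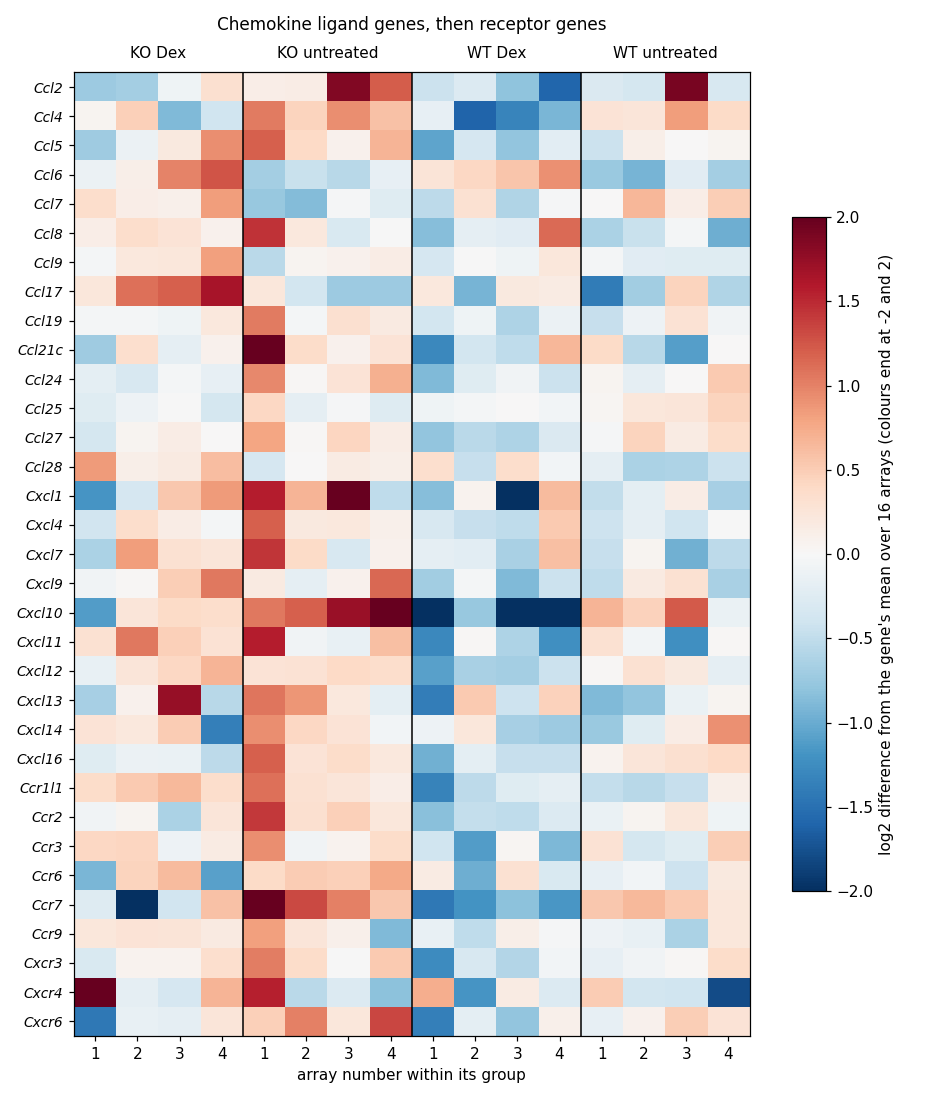
Level of 33 of the 34 tested chemokine genes on each of the 16 arrays, as the log2 difference from that gene's mean over all arrays, with ligands above receptors and the 4 groups side by side. Cxcl10 has its lowest group mean on wild-type dexamethasone arrays, where its level ranges from -4.39 to -2.16. Treated knockout array 1, at -2.52, lies within that range. Many genes are high on untreated knockout array 1.

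The first question was which chemokine genes dexamethasone changed in livers with the receptor. In wild types 7 of the 34 were called, 6 of them lower with dexamethasone and 1 higher, where 12% of all 18598 genes were called and 6.91% were called lower. The lower ones were the interferon-inducible T cell attractant Cxcl10, the T cell and monocyte attractant Ccl4, the Cxcr4 ligand Cxcl12, the Ccr10 ligand Ccl27, the Cxcr6 ligand Cxcl16 and the lymph-node homing receptor Ccr7. The higher one was Ccl6, a CC chemokine of myeloid cells. The median difference over the 34 was -0.34 on the log2 scale, against -0.04 over all genes; 24 of the 34 were negative and 10 positive, where 46.0% of all genes were positive.

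Cxcl10 read -4.39, -2.16, -3.52 and -3.81 in dexamethasone-treated wild types, against -0.71, -0.94, -0.17 and -1.53 in untreated wild types. The groups did not overlap. The difference was -2.63 (SE 0.46, adjusted p = 0.0027 by limma), or 6.20-fold lower. Among the other ligands of Cxcr3, the receptor of activated T cells and NK cells, Cxcl9 averaged 0.12 ± 0.37 with dexamethasone and 0.46 ± 0.48 without (SD, n = 4 each), with a difference of -0.34 that was not called (95% interval -1.04 to 0.35). Cxcl11, the last of the trio, averaged -2.71 ± 0.61 with dexamethasone and -2.17 ± 0.68 without, and it was not called either. Cxcr3 itself differed by -0.59 with an adjusted p of 0.153 by limma.

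Cxcl12, which holds haematopoietic cells and lymphocytes in place through Cxcr4, read 4.10, 4.54, 4.50 and 4.75 in dexamethasone-treated wild types, against 5.21, 5.49, 5.38 and 5.0 in untreated wild types. Every treated array lay below every untreated one, and the difference was -0.80 (SE 0.18, adjusted p = 0.0101 by limma), or 1.74-fold lower. A second Cxcl12 probe gave -0.41, which was not called. The probe for Cxcr4 was above background on 8 of 16 arrays, and its dexamethasone difference of 0.37 was not called.

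Cxcl16, a membrane-bound chemokine that attracts cells carrying Cxcr6, read -1.88, -1.12, -1.39 and -1.39 with dexamethasone, against -0.85, -0.68, -0.60 and -0.52 without. These groups did not overlap, and Cxcl16 fell by 0.78 on the log2 scale (SE 0.21, adjusted p = 0.0262 by limma). Its second probe gave -0.63 with an adjusted p of 0.121, and the call was also lost when any of 5 wild-type arrays was left out (untreated 2, 3 or 4, or dexamethasone 1 or 3), with values from -0.80 to -0.63. Cxcr6 differed by -0.73, which was not called.

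Ccl27, a ligand known from skin homing, read 0.66, 0.91, 0.82 and 1.15 in dexamethasone-treated wild types, against 1.41, 1.89, 1.61 and 1.81 in untreated ones. The groups did not overlap, and the difference was -0.80 (SE 0.18, adjusted p = 0.0102 by limma). C57BL/6 mice carry near-identical copies of Ccl27, Ccl21 and Ccl19, so it is uncertain which copy these probes read.

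Ccl4 read -4.27, -5.69, -5.42 and -5.01 with dexamethasone, against -3.82, -3.86, -3.27 and -3.71 without. It was well above background on 1 of 4 treated arrays and on 4 of 4 untreated ones, and the groups did not overlap. The measured difference was -1.43 (SE 0.31, adjusted p = 0.0088 by limma). With normexp background correction of the raw signals it was -0.49 and was not called.

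Ccl6 was the member called higher. It read 0.98, 1.14, 1.28 and 1.64 in dexamethasone-treated wild types, against -0.01, -0.20, 0.51 and 0.05 in untreated wild types. All treated arrays were above all untreated ones, and Ccl6 rose by 1.17 (SE 0.27, adjusted p = 0.0124 by limma), or 2.26-fold. Ccl9, its neighbour in the same chromosome 11 cluster and also a ligand of Ccr1, averaged 3.51 ± 0.23 with dexamethasone and 3.37 ± 0.11 without (SD, n = 4 each), a difference of 0.14 that was not called.

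Ccr7, the receptor for Ccl19 and Ccl21 on naive lymphocytes and dendritic cells, was the receptor called. It read -6.86, -6.62, -6.26 and -6.60 in dexamethasone-treated wild types, against -4.90, -4.78, -4.91 and -5.21 in untreated wild types. The probe was well above background on 0 of 4 treated arrays and 3 of 4 untreated arrays, so its level with dexamethasone is a bound, and Ccr7 was at least 1.21-fold lower (adjusted p = 0.0223 by limma; measured means -6.58 and -4.95). This bound sets the untreated mean against the faintest signals called above background on the treated arrays. The untreated mean includes array 4, at -5.21, which was not well above background (faintest such signal there -4.37). The factor of 1.21 is therefore not a firm minimum. The call was lost without untreated array 1, 2 or 3 or dexamethasone array 1, with measured differences from -1.62 to -1.54, and with normexp background correction, where it was -0.38. The ligand genes of Ccr7 were not called: Ccl19 differed by -0.21 and Ccl21c by -0.06.

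**Figure D2:**
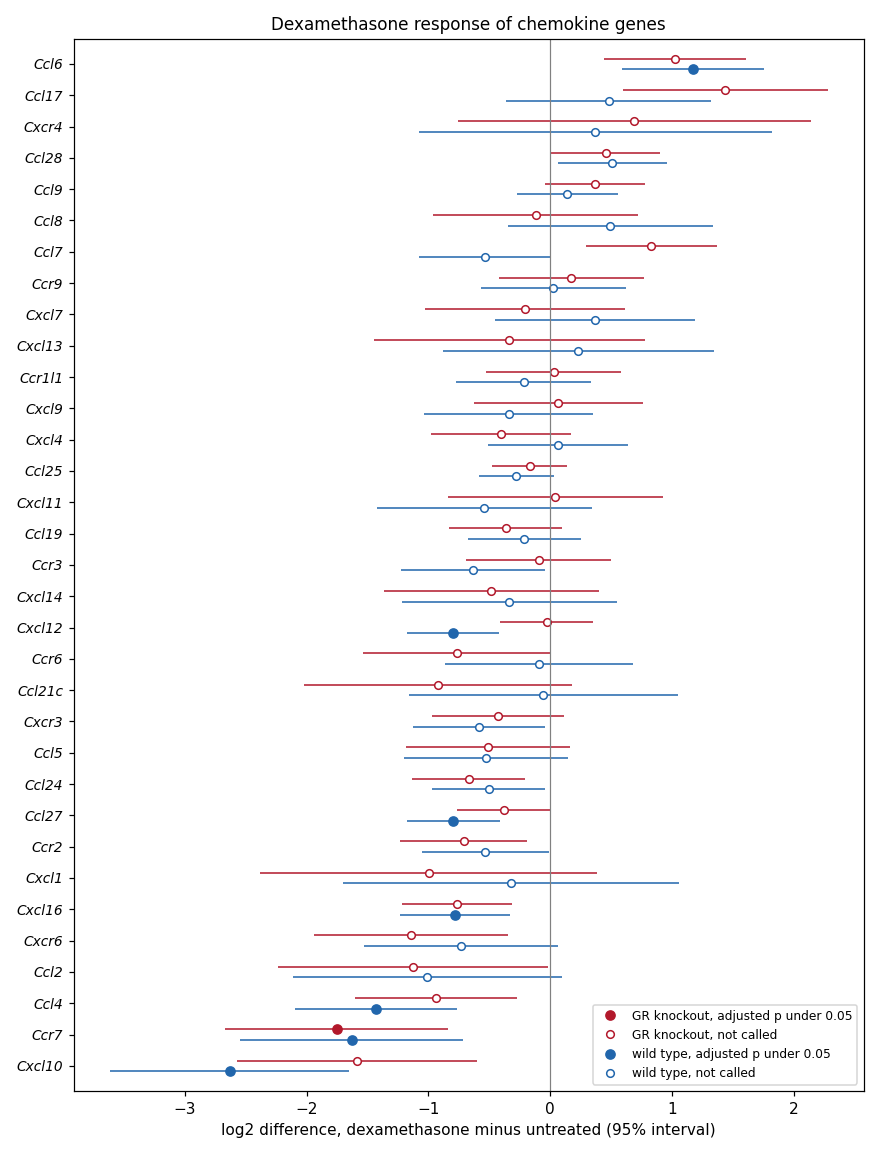
Dexamethasone minus untreated on the log2 scale with 95% intervals for 33 of the 34 tested chemokine genes, knockouts in red and wild types in blue, filled where the adjusted p was under 0.05. Cxcl10 has the lowest wild-type value (-2.63) and Ccl6 the highest wild-type value (1.17), and Ccr7 is the one filled knockout point (-1.75); the wild-type Ccr7 point is a measured value whose treated level is only a bound.

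The next question was what dexamethasone did to the same genes in knockout livers, where Nr3c1 signal was lowered but not absent. In knockouts 1 of the 34 was called, Ccr7, where 3.63% of all genes were called. An unadjusted p under 0.05 was reached by 13 of the 34 in knockouts and by 13 in wild types. Here and in all later paragraphs, the share of all genes under that unadjusted threshold is not given. Such counts are therefore a description and show no excess over all genes. The median over the 34 was -0.37, against -0.00 over all genes; 24 were negative and 10 positive, where 49.3% of all genes were positive. Without untreated knockout array 1 the median over the 34 was -0.15, against 0.02 over all genes. With normexp background correction it was -0.09, against 0.06 over all genes.

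Ccr7 read -5.69, -7.53, -5.82 and -4.85 in dexamethasone-treated knockouts, against -3.44, -4.11, -4.43 and -4.90 in untreated knockouts, above background on 1 of 4 and 4 of 4 arrays. The treated arrays were lower except for 1, which reached just above the lowest untreated array. The measured difference was -1.75 (SE 0.43, adjusted p = 0.0362 by limma), with 3 of the 4 treated signals not well above background, so its size is not well determined. The call was lost without untreated knockout array 1, 2 or 3 or dexamethasone knockout array 2 or 3, with values from -1.82 to -1.24, and it turned to 0.11 with normexp background correction (adjusted p = 0.91).

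Several genes lay just outside the threshold in knockouts. Ccl6 read 0.62, 0.84, 1.72 and 1.99 with dexamethasone, against 0.05, 0.27, 0.18 and 0.57 without, groups that did not overlap; the difference was 1.03 (adjusted p = 0.0515 by limma). Ccl6 was called without treated knockout array 1 (1.25) and, at 1.02 to 1.03, with quantile normalization, the percentile over bright probes, the stricter filter, trended robust variance or the replicate block. Cxcl10 read -2.52, -1.15, -1.02 and -1.05 with dexamethasone, against -0.34, -0.20, 0.34 and 0.81 without, and again the groups were apart. Its difference was -1.59 (SE 0.46, adjusted p = 0.0728 by limma), and it was called when treated wild-type array 2 was left out. Cxcl16 read -1.16, -1.04, -1.06 and -1.44 with dexamethasone, against 0.28, -0.66, -0.55 and -0.71 without. The difference was -0.76 (adjusted p = 0.0607 by limma), and untreated array 1, at 0.28, stood apart from the others. Cxcl16 was called with quantile normalization. Ccl17, a ligand of Ccr4 made by dendritic cells and macrophages, differed by 1.44 (adjusted p = 0.0573 by limma), and it was above background on 4 of 4 treated and 2 of 4 untreated arrays. Ccl17 was called when treated knockout array 1, untreated knockout array 1, treated wild-type array 2 or untreated wild-type array 1 or 3 was left out (1.44 to 1.71), without both dim arrays (1.65) and with quantile normalization (1.51).

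Whether the response differed between genotypes was tested as the interaction, the knockout response minus the wild-type response. Of the 34 genes 1 was called, where 4.58% of all genes were called. It was Ccl7, a monocyte attractant that acts through Ccr2. Ccl7 read -3.01, -3.23, -3.25 and -2.52 in dexamethasone-treated knockouts, against -4.11, -4.23, -3.38 and -3.60 in untreated knockouts, with no overlap. In wild types it read -3.88, -3.05, -3.96 and -3.37 with dexamethasone, against -3.35, -2.68, -3.22 and -2.86 without, where the groups overlapped. The probe was well above background on 3 of 4 untreated knockout arrays and on 4 of 4 arrays in each other group. A second Ccl7 probe was above background on only 2 of 16 arrays.

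Neither response of Ccl7 was called alone: it was 0.83 in knockouts (adjusted p = 0.0871 by limma) and -0.54 in wild types (adjusted p = 0.189). The difference of the responses was 1.36 (SE 0.36, adjusted p = 0.042 by limma). Leaving out any of 12 of the 16 arrays lost this call, with values from 1.20 to 1.45 and adjusted p up to 0.0942; the 4 arrays without that effect were untreated wild-type 1, dexamethasone wild-type 2, and untreated knockout 3 and 4. Ccl2, the neighbouring Ccr2 ligand, had an interaction of -0.12, and Ccr2 itself -0.18, and neither was called.

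Cxcl12 came next in the interaction. Its difference was -0.03 in knockouts, with 5.03, 5.43, 5.60 and 5.86 under dexamethasone against 5.46, 5.47, 5.58 and 5.53 without. The knockout response minus the wild-type response was 0.77 (95% interval 0.23 to 1.31, adjusted p = 0.107 by limma), which was not called; it was called without dexamethasone knockout array 1, at 0.92. For Cxcl10 the interaction was 1.04 (95% interval -0.35 to 2.44), for Ccl6 -0.15 (-0.97 to 0.68), for Ccl4 0.50 (-0.44 to 1.44), for Ccl27 0.41 (-0.13 to 0.95) and for Cxcl16 0.02 (-0.62 to 0.65). For Ccr7 no interaction is given, because its level in treated wild types is only a bound. Limma called none of these differences, although each of these genes was called in wild types and not, in the fit reported here, in knockouts. The intervals of Cxcl10, Cxcl12 and Ccl4 still hold differences of over 1 log2 unit.

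Knockouts were then compared with wild types under dexamethasone. Here 6 of the 34 were called, all higher in knockouts, where 22.4% of all genes were called and 14.2% were called higher. They were the ligands Cxcl12, Cxcl10, Cxcl11 and Ccl27 and the receptors Ccr1l1 and Ccr3. The median over the 34 was 0.45, against 0.09 over all genes, and 32 of the 34 were positive, against 58.2% of all genes. This comparison shares the treated wild-type arrays with the wild-type dexamethasone comparison and the treated knockout arrays with the knockout one, so their values for a gene are not independent.

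Cxcl12 was higher on every treated knockout array (5.03 to 5.86) than on every treated wild-type array (4.10 to 4.75), by 1.01 (SE 0.18, adjusted p = 0.0014 by limma), or 2.01-fold. Its second probe gave 0.76, also called. Cxcl10 averaged -1.44 ± 0.72 in treated knockouts and -3.47 ± 0.95 in treated wild types (SD, n = 4 each), 2.03 higher (SE 0.46, adjusted p = 0.0063 by limma). The groups overlapped at 1 array of each, since treated wild-type array 2 reached -2.16 and treated knockout array 1 was at -2.52.

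Cxcl11 read -1.62, -0.87, -1.45 and -1.64 in treated knockouts, against -3.21, -1.90, -2.55 and -3.16 in treated wild types. All knockout arrays lay above all wild-type arrays, and the difference was 1.31 (SE 0.41, adjusted p = 0.0345 by limma). The call was lost without treated wild-type array 1, 3 or 4 or treated knockout array 1, 2 or 3, with values from 1.14 to 1.39. Cxcl9 differed by 0.89 (adjusted p = 0.0638 by limma) and Cxcr3 by 0.60 (adjusted p = 0.107), neither called.

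Ccr1l1, a receptor gene named for its likeness to Ccr1, read -3.29, -3.14, -3.01 and -3.31 in treated knockouts, against -4.99, -4.18, -3.90 and -3.83 in treated wild types. The groups were apart, with a difference of 1.04 (SE 0.26, adjusted p = 0.011 by limma). Ccr3, the eotaxin receptor of eosinophils, averaged -2.81 ± 0.25 in treated knockouts and -3.63 ± 0.51 in treated wild types (SD, n = 4 each), 0.82 higher (adjusted p = 0.0476 by limma). Ccl27 averaged 1.41 ± 0.21 in treated knockouts and 0.88 ± 0.20 in treated wild types, 0.52 higher (adjusted p = 0.0472). Leaving out 1 array lost the Ccr3 call in 11 of 16 fits (values from 0.64 to 0.93); it was kept without untreated knockout array 1 or 2, treated wild-type array 3 or untreated wild-type array 2 or 4. The Ccl27 call was lost in 10 of 16 fits (0.45 to 0.53) and was kept without treated knockout array 1, untreated knockout array 1, 2 or 4, treated wild-type array 4 or untreated wild-type array 1. Among the ligands of Ccr3, Ccl11 was not above background and Ccl24 differed by 0.23, which was not called.

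Between untreated knockouts and untreated wild types, limma called 0 of the 34 genes, where 2.87% of all genes were called, and 10 had an unadjusted p under 0.05. The differences leaned to one side all the same: 32 of 34 were positive, against 56.3% of all genes, with a median of 0.47 against 0.05. The negative ones were Ccl7 at -0.80 (adjusted p = 0.099) and Ccl25, known for drawing T cells to the gut, at -0.24. Untreated knockout array 1 contributed to this lean. Without it 28 of the 34 were positive, against 53.3% of all genes, with a median of 0.35 against 0.02. Of the 34, 5 then had an unadjusted p under 0.05. Without both dim arrays 30 were positive, against 55.3% of all genes, with a median of 0.37 against 0.04. With normexp background correction 32 were positive, against 56.7% of all genes, with a median of 0.23 against 0.04.

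On untreated knockout array 1, Ccl21c read 2.13, against -0.28 to 0.01 on the other untreated knockout arrays, and the platelet factor gene Cxcl4 (Pf4) read 0.50, against -0.59 to -0.48. Cxcl10 averaged 0.15 ± 0.53 in untreated knockouts and -0.84 ± 0.56 in untreated wild types (SD, n = 4 each), a difference of 0.99 with an adjusted p of 0.256. Ccr1l1 differed by 0.79 (adjusted p = 0.111) without overlap between the groups. Cxcl12 differed by 0.24 (95% interval -0.14 to 0.62).

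**Figure D3:**
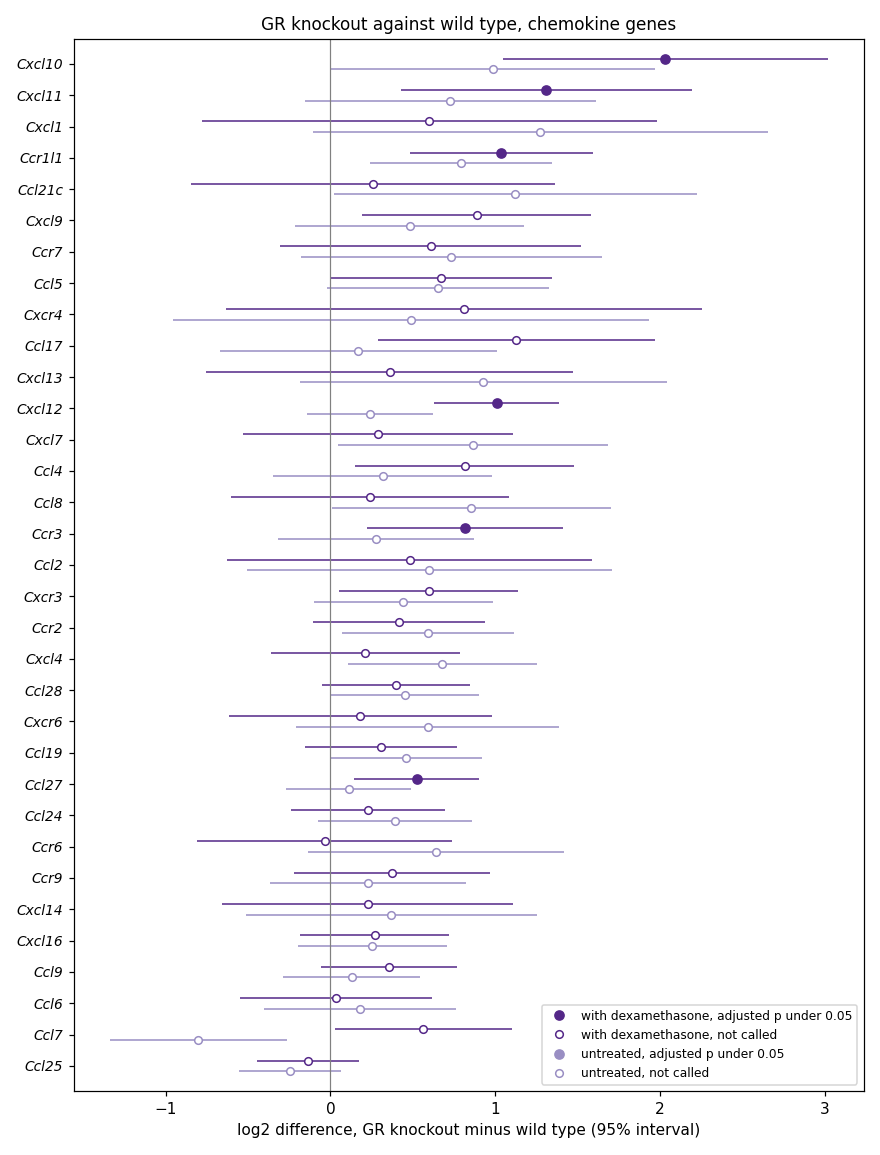
GR knockout minus wild type on the log2 scale with 95% intervals for 33 of the 34 tested chemokine genes, under dexamethasone in dark purple and untreated in light purple, filled where the adjusted p was under 0.05. Nearly all points lie right of 0, and the 6 filled points, from Ccl27 (0.52) to Cxcl10 (2.03), all belong to the dexamethasone comparison.

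The other tested members were called in none of the 5 comparisons. Among the monocyte attractants, Ccl2 averaged -3.07 ± 0.51 in treated knockouts, -1.94 ± 0.85 in untreated knockouts, -3.55 ± 0.59 in treated wild types and -2.54 ± 1.11 in untreated wild types (SD, n = 4 each). Its dexamethasone difference was -1.13 in knockouts and -1.01 in wild types, with arrays within untreated groups spread over as much. The neutrophil attractant Cxcl1 ranged from -1.59 to 0.43 in treated knockouts, -0.93 to 1.73 in untreated knockouts, -2.79 to 0.21 in treated wild types and -1.09 to -0.28 in untreated wild types. Such spreads put its intervals beyond 1 log2 unit on either side in wild types, so this number of arrays cannot settle its response. Ccl5, a T cell chemokine, averaged 0.68 ± 0.68 in treated knockouts, 1.20 ± 0.47 in untreated knockouts, 0.02 ± 0.40 in treated wild types and 0.55 ± 0.25 in untreated wild types.

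Ccr2, the receptor of inflammatory monocytes, averaged -3.81 ± 0.38 in treated knockouts, -3.10 ± 0.54 in untreated knockouts, -4.23 ± 0.23 in treated wild types and -3.69 ± 0.16 in untreated wild types. Ccl24 averaged 0.14 ± 0.12 in treated knockouts, 0.81 ± 0.42 in untreated knockouts, -0.09 ± 0.35 in treated wild types and 0.42 ± 0.30 in untreated wild types. The B cell attractant Cxcl13 differed by -0.34 with dexamethasone in knockouts and by 0.23 in wild types, with intervals that cross 0. For Ccl25 the interval of the dexamethasone difference was -0.48 to 0.14 in knockouts and -0.59 to 0.03 in wild types.

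**Figure D4:**
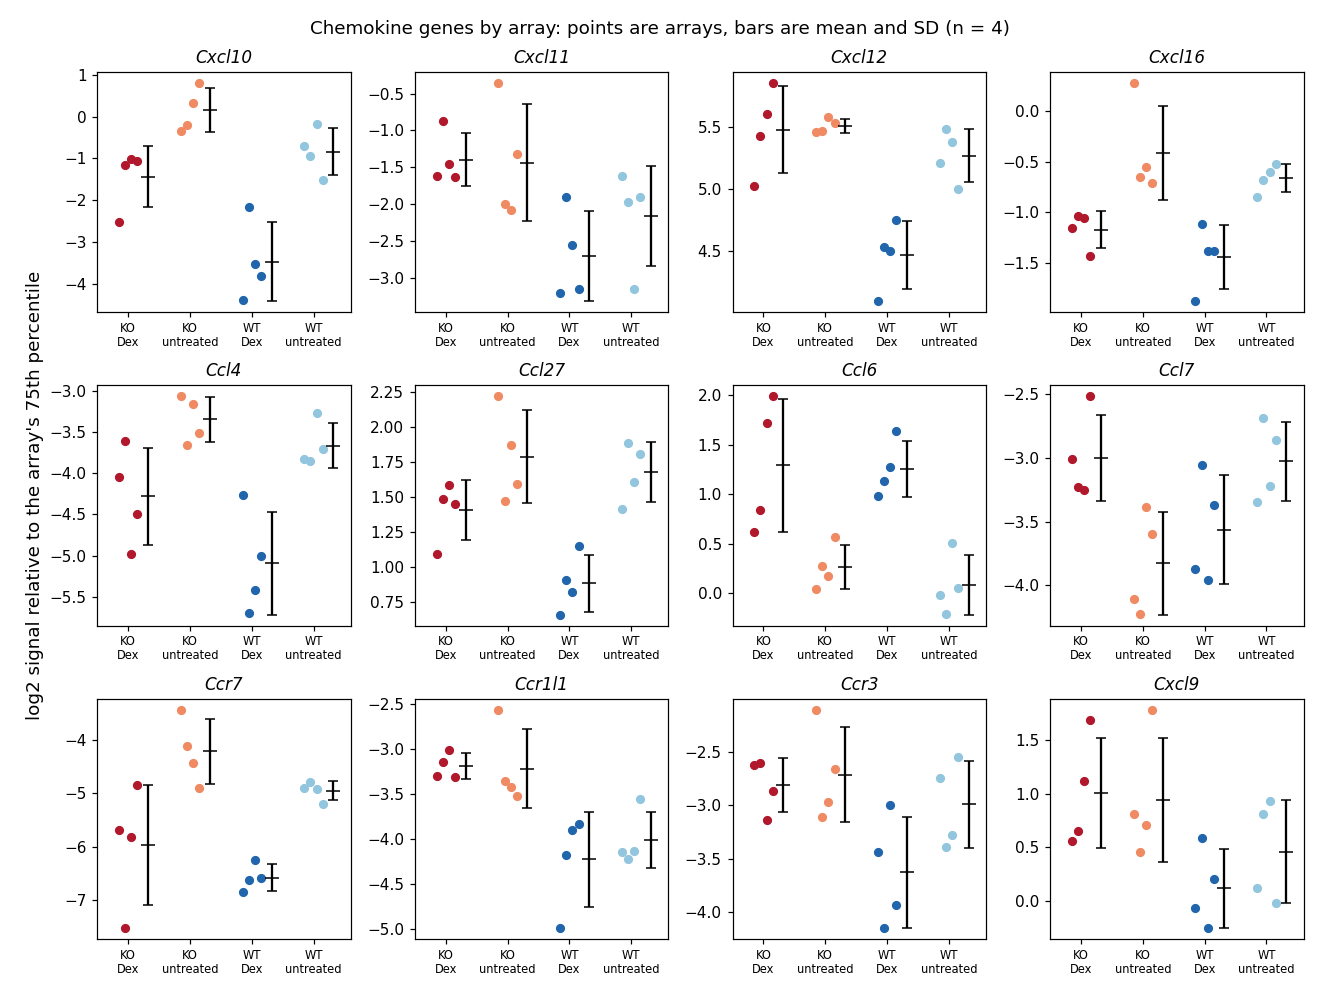
Log2 level of the 11 called chemokine genes and Cxcl9 on each array, by group, with the mean and SD of 4 arrays beside the points. Cxcl12 sits at 4.10 to 4.75 in treated wild types and at 5.0 or above in the other 3 groups, and Ccl6 is higher with dexamethasone in both genotypes.

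Chemokine genes outside the symbol pattern were counted from a list of receptors and ligands under other names, of which 14 of the 15 on the array were tested. For these and the following lists the shares of all genes called are 3.63% for dexamethasone in knockouts, 12% for dexamethasone in wild types, 4.58% for the interaction, 22.4% between treated genotypes and 2.87% between untreated genotypes. Counts of so few genes are given as a description. Dexamethasone called 0 higher and 2 lower in knockouts (Blr1 and the decoy receptor gene Darc, at -0.94) and 0 higher and 2 lower in wild types (Blr1 and the scavenger receptor gene Ccrl1, at a measured -1.25 with 2 of 4 treated arrays above background). Blr1 is the older name of Cxcr5, the receptor of B cells for Cxcl13. Its probe was not well above background on any treated array, so it was at least 3.28-fold lower with dexamethasone in knockouts (adjusted p = 0.0029 by limma) and at least 1.61-fold lower in wild types (adjusted p = 0.00036 by limma). In untreated wild types the Blr1 probe was well above background on 3 of 4 arrays, so 1.61 is not a firm minimum. In the interaction the fractalkine receptor gene Cx3cr1 was called at a measured -2.09, with a probe well above background on 1 of 4 treated knockout, 4 of 4 untreated knockout, 4 of 4 treated wild-type and 2 of 4 untreated wild-type arrays. Treated knockouts against treated wild types gave 1 higher (Blr1, not well above background in either group) and 1 lower (Cx3cr1, at a measured -0.96). Between the untreated genotypes limma called 0 of the 14, with 4 at an unadjusted p under 0.05.

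Of 30 tested genes of chemokine receptor signalling, dexamethasone called 0 higher and 1 lower in knockouts (the GTPase gene Rac2 at -1.12), where 3.63% of all genes were called, and 1 higher and 3 lower in wild types, where 12% were. In wild types these were the kinase gene Lyn at 0.98, the G protein gene Gnai2 at -0.58, the phospholipase gene Plcb2 at -1.04 (above background on 1 of 4 treated arrays) and Rac1 at -0.30. The interaction called Lyn, at -1.09. In treated knockouts against treated wild types 4 were higher (Arrb2, Gnai2, Gng11 and Plcb2, from 0.45 to 1.18) and 2 lower (Lyn at -1.26 and Ptk2b at -1.05), so 6 of 30 where 22.4% of all genes were called, and between untreated genotypes limma called 0, with 6 at an unadjusted p under 0.05.

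Of 30 tested genes that act upstream of chemokine genes, dexamethasone called 0 higher and 1 lower in knockouts (the NF-kB subunit gene Relb at -1.15), where 3.63% of all genes were called, and 3 higher and 3 lower in wild types, where 12% were. The higher were Cebpd at 1.11, the interleukin 1 receptor gene Il1r1 at 1.78 and Jun at 1.29, and the lower were the interferon regulatory factor genes Irf1 at -1.11 and Irf7 at -1.06 and Relb at -1.04. Untreated knockouts had 2 lower than untreated wild types, Cebpd at -1.94 and the glucocorticoid-induced Tsc22d3 at -1.74, where 2.87% of all genes were called. Treated knockouts against treated wild types gave 2 higher, Irf1 at 1.28 and Irf7 at 0.89, and 6 lower: Il1r1 at -3.24, Cebpd at -2.21, Tsc22d3 at -2.02, Cebpb at -1.36, Jun at -1.06 and Tnfaip3 at -0.87. That is 8 of 30, where 22.4% of all genes were called. In the interaction limma called 0, with 4 at an unadjusted p under 0.05.

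Markers of the cells that could carry or make chemokines moved in part with the same groups. The mean level of 6 B cell markers was -4.23 to -3.53 in treated knockouts, -3.07 to -1.74 in untreated knockouts, -4.71 to -4.15 in treated wild types and -3.34 to -3.08 in untreated wild types, and 3 of the 6 (Cd79b, Faim3 and Ms4a1) were called lower with dexamethasone in each genotype. Between treated genotypes Cd79a was called higher in knockouts, at 1.06 (adjusted p = 0.0467 by limma; above background on 4 of 4 knockout and 2 of 4 wild-type arrays), beside the chemokine genes called higher there. Ccr7 and Blr1 moved with these markers, and the part of B cells in any of these values was not tested. Of 12 Kupffer cell and macrophage markers, limma called 0 in each comparison, with 0 to 5 at an unadjusted p under 0.05. Their mean was 1.41 to 2.23 in treated knockouts, 1.75 to 2.49 in untreated knockouts, 1.05 to 1.70 in treated wild types and 1.48 to 1.82 in untreated wild types. Their median difference was 0.34 between treated genotypes and 0.46 between untreated ones, beside 0.45 and 0.47 for the chemokine genes. The medians of the other leukocyte lists were positive too. Between treated genotypes they were 0.70 (monocyte), 1.07 (neutrophil), 0.66 (NK cell), 0.41 (T cell), 0.41 (B cell) and 0.36 (dendritic cell). Between untreated genotypes they were 0.65, 0.68, 0.51, 0.27, 0.79 and 0.09 in the same order. The part of macrophages or of any of these cells in the chemokine medians was not tested.

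Among 7 sinusoidal endothelial markers, Kdr was called lower with dexamethasone in knockouts (-1.03), where Cxcl12 (-0.03) and Cxcl16 (-0.76) were not called. In wild types Kdr (-1.13) and Fcgr2b (-0.80) were called lower, as were Cxcl12 and Cxcl16, which these cells are known to make. The median over the 7 markers was -0.17 in knockouts and -0.18 in wild types. The part of these cells in the Cxcl12 and Cxcl16 values was not tested. Of 9 T cell markers, Cd3e was called lower with dexamethasone in knockouts (-0.93) and Cd3g in wild types (-0.78), and Cd3e in the interaction (-1.10). In treated knockouts against treated wild types Cd5 (0.94) and Cd8b1 (0.66) were called higher and Cd3e lower (-0.69). Of 4 neutrophil markers S100a9 was called lower with dexamethasone in wild types (-2.01), of 4 dendritic cell markers H2-DMb2 was (-1.28), and of 5 monocyte markers Plac8 was called higher in treated knockouts than in treated wild types (0.70). Of 4 NK cell and 8 stellate cell markers limma called 0 in each comparison, with 0 to 2 of each at an unadjusted p under 0.05. Of 6 bile duct markers Sox9 was called higher with dexamethasone in wild types (1.35) and Krt7 lower in treated knockouts than in treated wild types (-0.88). Of 8 hepatocyte markers, which label the tissue and read 7.04 to 7.98 on average on every array, 5 were called lower in treated knockouts than in treated wild types (Apoa1, Ass1, Cps1, Cyp2e1 and Tat, from -1.45 to -0.53) and 3 in untreated knockouts than in untreated wild types (Apoa1, Cps1 and G6pc, from -1.30 to -0.88). With dexamethasone in wild types Tat was called higher (1.06) and G6pc lower (-0.70).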

How the data were processed

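Total liver RNA was labelled with Cy3 and hybridised to 16 single-colour Agilent arrays, 4 per group. Per the file headers and the submitters' processing notes, the authors read the scans with Agilent Feature Extraction 9.5, with probe positions on mm7; the deposited processed-signal intensity is background-subtracted and linear, not log-scaled. The deposited series table held the same intensity values. From the intensities, log2 processed signal minus each array's 75th percentile was computed; control spots and 2121 outlier spots (0.306%) were left out, and spots of a probe were averaged. limma 3.58.1 fitted 4 group means on all 16 arrays, with 12 residual degrees of freedom and two-sided tests, and was tested on simulated data. Precision is limited by the number of arrays. Of the 47 genes, 43 matched RefSeq by accession; 3 have newer symbols there (Ccl27a, Pf4 and Ppbp).

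Every chemokine gene called in a comparison was named with values; 1 tested, uncalled gene is counted among the 34 but is not reported here. Members and gene lists were chosen with earlier results of these data known. Not all same-numbered arrays deviated together (10 of 24 pairs over r = 0.1, median 0.0755), so replicate numbers were not taken to pair mice. Alternatives were background correction, scaling, filters, outlying spots, probe averaging, variance model, the replicate block, the groups fitted, the series table, and leaving out arrays, the pair of dim arrays being chosen after the data were seen.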

Additional observations from a re-analysis of the deposited data

Results flagged for a closer look

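Of 136 groups of 4 arrays looked at, 11 had 1 array far from the other 3, with a gap beyond Dixon's 95% critical value; chance flags about 1 group in 20. Untreated knockout array 1, the dimmest, stood apart for 4 genes: Ccl9 at 3.02 (others 3.61 to 3.70), Ccl21c at 2.13 (others -0.28 to 0.01), Cxcl4 at 0.50 (others -0.59 to -0.48) and Cxcl16 at 0.28 (others -0.71 to -0.55). Among treated knockouts, array 1 stood apart for Cxcl10 at -2.52 (others -1.15 to -1.02), and array 4 for Ccl19 at 1.33 (others 1.04 to 1.08) and Cxcl14 at -2.75 (others -1.19 to -0.88). Treated wild-type array 2 stood apart for Ccl17 at -5.14 (others -4.04 to -4.0). Among untreated wild types, array 3 stood apart for Ccl2 at -0.88 (others -3.13 to -3.07), array 1 for Ccl9 at 3.52 (others 3.31 to 3.32) and array 4 for Ccr1l1 at -3.55 (others -4.22 to -4.13).

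The dexamethasone response of Ccl7 differed between genotypes by 1.36 in the interaction test of limma (adjusted p = 0.042).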

How the results depend on the processing

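The main counts of called chemokine genes were 7 for dexamethasone in wild types, 1 for dexamethasone in knockouts, 1 for the interaction, 0 for untreated knockouts against untreated wild types and 6 for treated knockouts against treated wild types. The shares of all genes called were 12%, 3.63%, 4.58%, 2.87% and 22.4% in that order. Normexp background correction gave 4, 0, 0, 0 and 2. Under it 6.52%, 0.317%, 0.538%, 0.452% and 12.9% of all genes were called. With no filter on dim probes, all 47 chemokine genes were tested. That gave 0 for dexamethasone in knockouts, 0 for the interaction and 3 for the treated genotypes. The shares of all genes were then 1.53%, 1.93% and 12.1%. For dexamethasone in knockouts, quantile normalization gave 4, the percentile over bright probes 2, the stricter filter 2, trended robust variance 2 and fitting only the groups compared 0. The shares of all genes were 5.88%, 3.26%, 3.90%, 3.18% and 0.667% in the same order. For the interaction, quantile normalization, trended robust variance and leaving out both dim arrays each gave 0. There 5.95%, 4.48% and 8.15% of all genes were called. For the treated genotypes, quantile normalization gave 4, without Ccl27 and Ccr3 (22.3% of all genes). Trended robust variance gave 5, without Ccr3 (21.9%). The percentile over bright probes (22.7%) and fitting only the groups compared (28.5%) each gave 8 there. With no filter on dim probes, dexamethasone in wild types gave 6, with Cxcl16 no longer called (5.74%). With the replicate block, dexamethasone in knockouts gave 3 (4.38%) and the treated genotypes 5 (22.6%), with Ccl27 no longer called there. The other counts of chemokine genes did not change with the replicate block. Leaving out 1 array gave 5 to 8 for dexamethasone in wild types, 0 to 3 in knockouts, 0 to 1 for the interaction, 0 for the untreated genotypes and 4 to 7 for the treated ones. The shares of all genes then ranged over 6.62 to 17.8%, 1.69 to 5.03%, 2.67 to 8.03%, 0.850 to 3.51% and 15.8 to 30.0%.

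For single genes 76 calls were lost under an alternative (53 of them when 1 array was left out), 35 were gained, and 1 reversed: Ccr7 with dexamethasone in knockouts, at 0.11 with normexp background correction. The cause was not tested. The wild-type dexamethasone calls of Cxcl10, Ccl4, Ccl6, Ccl27 and Cxcl12, and the treated-genotype calls of Cxcl12, Cxcl10 and Ccr1l1, were kept in all 16 fits without 1 array. Normexp background correction ended the call of Ccr1l1, at 0.68. Under it the median of all genes between treated genotypes was 0.18, and with the percentile over bright probes 0.12, against 0.09. Keeping outlying spots or using the series table changed no call. With normexp background correction the wild-type dexamethasone calls of Ccl4, Ccr7 and Cxcl16 were lost.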
